A study of Homo sapiens with 9 samples.

Results

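Small nucleolar RNA host genes and the genes for the core proteins of small nucleolar ribonucleoproteins (snoRNPs) were followed in U-373MG cells, an established human line of glioblastoma and astrocytoma origin. The members were every symbol made of SNHG and a number, plus GAS5, ZFAS1, DANCR, TAF1D, NOP56, NOP58, FBL, DKC1, NHP2, NOP10 and GAR1. They were chosen by symbol, with earlier results of these data known. They came to 32 of the 24462 symbols in the deposited counts: 24 noncoding host genes (21 SNHG genes, GAS5, ZFAS1 and DANCR), 7 core protein genes and TAF1D. The cells were exposed for 48 h to 200 nM of CBRV1-10493 (3 libraries), for 48 h to 200 nM of NnK-1 (3 libraries), or left untreated as controls (3 libraries). Both agents are synthetic, ShK-like peptides drawn from jellyfish, and 1 set of controls served for both. No source used here states another treatment of any group or how long the controls were in culture.

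Small nucleolar RNAs (snoRNAs) guide the chemical modification of ribosomal RNA, and most human ones are cut from the introns of longer host transcripts. Box C/D snoRNAs work with the methyltransferase fibrillarin (FBL), NOP56 and NOP58, and guide methylation of ribose. Box H/ACA snoRNAs work with the pseudouridine synthase dyskerin (DKC1), NHP2, NOP10 and GAR1, and guide the conversion of uridine to pseudouridine. The spliced exons of many host genes code for no conserved protein. Several are known to be degraded by nonsense-mediated decay, and many start, like ribosomal protein mRNAs, with a cytosine followed by pyrimidines. That start is known as a 5′ terminal oligopyrimidine motif and ties the translation of a transcript to growth signals.

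The sequences around the start sites of the host genes and the core protein genes were compared for these features. Of the 32 members, 26 had a promoter of 250 bases before to 50 after the start in the RefSeq table of build GRCh38.p14, 19 of them noncoding hosts and 6 core protein genes. TATAA was searched on both strands between 40 and 20 bases upstream. A pyrimidine run was a C followed by C or T for at least 5 bases in all, on the gene's strand and starting within 5 bases of the start site. TATAA was found in 6 of 19 noncoding hosts (31.6%), 0 of 6 core protein genes and 4.5% of all 35116 promoters in the table. The pyrimidine run was found in 10 of 19 noncoding hosts (52.6%), 1 of 6 core protein genes (16.7%) and 19.7% of all promoters. On the other strand the run was found in 15.8% of the hosts, 33.3% of the core protein genes and 17.5% of all promoters. Both features stood in 6 of 19 hosts (31.6%) and in 0.874% of all promoters. These 6 hosts are shown from 45 bases before to 25 after the start, with FBL as the core protein gene that has a run. Capitals mark TATAA, on either strand, and the pyrimidine run. A match describes letters in these windows only, and the build is not the hg19 of the counts. Each member was scored on the first promoter listed for its symbol, while the 35116 counted every listed promoter. The GAS5 window (chr1:173869021-173869090, minus strand) lay outside the GAS5 locus of GENCODE (chr1:173863900-173868882), so its lack of a run holds for that start only.
SNHG19, chr16:2155334-2155403, minus strand: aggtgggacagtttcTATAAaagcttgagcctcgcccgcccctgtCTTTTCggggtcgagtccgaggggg
SNHG8, chr4:118278717-118278786, plus strand: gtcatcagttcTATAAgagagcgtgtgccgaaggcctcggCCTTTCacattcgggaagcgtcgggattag
SNHG5, chr6:85678709-85678778, minus strand: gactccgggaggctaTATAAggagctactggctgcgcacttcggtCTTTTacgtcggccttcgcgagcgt
SNHG7, chr9:136728160-136728229, minus strand: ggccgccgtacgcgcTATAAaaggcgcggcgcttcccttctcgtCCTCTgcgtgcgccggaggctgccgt
SNHG12, chr1:28581849-28581918, minus strand: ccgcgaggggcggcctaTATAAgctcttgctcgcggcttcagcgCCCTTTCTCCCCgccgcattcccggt
ZFAS1, chr20:49278597-49278666, plus strand: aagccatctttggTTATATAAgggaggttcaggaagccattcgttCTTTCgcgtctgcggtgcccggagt
FBL, chr19:39846355-39846424, minus strand: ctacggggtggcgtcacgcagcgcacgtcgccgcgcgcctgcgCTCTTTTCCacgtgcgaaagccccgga

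SNHG19 and SNHG25 are the hosts that stood farthest from control in NnK-1 cells, in opposite directions, so their RNAs are shown next, from GENCODE release 29 on GRCh38. SNHG19 (chr16:2154797-2155358, minus strand) has 1 annotated transcript, with the box C/D snoRNA SNORD60 in its intron. SNHG25 (chr17:64145970-64146476, plus strand) has 2 annotated transcripts, with the box C/D snoRNA SNORD104 in an intron of both and the box H/ACA snoRNA SNORA50C in an exon of 1 of them. SNHG25 had no entry in the promoter table. Its shorter transcript, of 106 bases, is printed with its first pyrimidines in capitals. In the snoRNAs, capitals mark TGATGA (the C box, found in 77.4% of 288 annotated SNORD transcripts) and CTGA (the D box, found in the last 15 bases of 91.3%), searched on the RNA strand.
SNHG25 shorter transcript with the gene at chr17:64145970-64146476, plus strand: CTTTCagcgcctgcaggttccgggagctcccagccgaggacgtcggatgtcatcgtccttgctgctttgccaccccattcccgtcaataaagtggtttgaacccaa
SNORD104, chr17:64146083-64146152, plus strand: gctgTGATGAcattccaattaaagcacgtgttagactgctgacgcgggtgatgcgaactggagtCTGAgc
SNORD60, chr16:2155023-2155105, minus strand: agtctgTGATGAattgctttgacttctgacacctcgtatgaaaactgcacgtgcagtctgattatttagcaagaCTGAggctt

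The libraries read the 3′ ends of polyadenylated RNA and held 11203094 to 13491075 counts each, with 15305 to 15968 genes detected. NnK-1 replicate 2 stood apart on the first principal component of log2 CPM (counts scaled to the library total), at 52.1 against -18.6 to 9.0 in the other 8 libraries (19.7% of the variance). CBRV1-10493 replicate 1 stood apart on the second, at -44.9 (14.7%). Of 9 astrocyte and glioma markers 7 averaged at least 5 CPM. GFAP stood at 19.7 to 28.98 CPM, but AQP4 had at most 0.083 CPM in any library and ALDH1L1 had no read. Of the other markers, 3 of 6 for neurons, 2 of 4 for oligodendrocytes, 0 of 4 for immune cells and 0 of 4 for endothelium averaged at least 5 CPM. Summed immune markers stood at 3.89 to 5.12 CPM with CBRV1-10493, 1.87 to 3.75 CPM with NnK-1 and 3.90 to 5.63 CPM in untreated control cells. Most of that sum was CD68 alone, at 1.61 to 5.04 CPM over the libraries, while PTPRC reached at most 0.082 CPM in any library. The part of these markers in the members' values was not tested. In bulk libraries, fewer cells of a type and less RNA per cell cannot be told apart.

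Of the 32 members, 27 had enough counts to be tested, and each of these averaged at least 5 CPM over the 9 libraries. They were 16 of 21 SNHG genes, GAS5, ZFAS1, DANCR, all 7 core protein genes and TAF1D. Of the 5 SNHG genes left untested, SNHG3 had 64 reads over all libraries, SNHG4 24 and SNHG22 8. SNHG20 had 2 reads, both in control replicate 1, and SNHG24 had 1, in CBRV1-10493 replicate 3. A count of 0 over a whole group allows up to 0.0824 CPM with CBRV1-10493, 0.0836 CPM with NnK-1 and 0.0781 CPM in untreated control cells, for counting error only. SNHG3 shares its locus with RCC1, and no source used here states how reads over shared sequence were counted.

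Levels below are CPM of 3′ counts, not divided by transcript length. Whether each read stands for a separate transcript end was not tested. SNHG16 stood at 547 ± 45.8 CPM with CBRV1-10493 and 611 ± 100.4 CPM with NnK-1, against 541 ± 21.6 CPM in control libraries (mean ± SD, n = 3 per group, as in all means here). SNHG16, SNHG6 and SNHG25 together held 60.5%, 64.6% and 63.9% of all noncoding host counts in CBRV1-10493 replicates 1, 2 and 3. In NnK-1 replicates 1, 2 and 3 the share was 61.7%, 60.1% and 62.2%, and in the control replicates it was 62.7%, 64.0% and 65.2%. Thus every library drew most of its host counts from 3 genes, with NnK-1 replicate 2 and CBRV1-10493 replicate 1 at the low end.

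ZFAS1, a host of box C/D snoRNAs of the SNORD12 family, stood at 228 ± 20.1 CPM with CBRV1-10493 and 212 ± 19.8 CPM with NnK-1, against 210.3 ± 19.3 CPM in control libraries. SNHG17 stood at 148 ± 11.6, 157 ± 24.0 and 142 ± 4.08 CPM in CBRV1-10493, NnK-1 and control cells. For both hosts the groups overlapped in every comparison. GAS5, named for growth arrest and the host of a cluster of box C/D snoRNAs, stood at 42.6 ± 2.49 CPM with CBRV1-10493 and 44.8 ± 1.88 CPM with NnK-1, against 46.0 ± 8.08 CPM in control libraries, with its widest spread in the controls. DANCR, the host of SNORA26, stood at 58.8 ± 2.57 CPM with CBRV1-10493 and 60.1 ± 5.94 CPM with NnK-1, against 60.6 ± 5.55 CPM in control libraries. The widest of their log2 intervals for a peptide against control, that of GAS5 with CBRV1-10493, ran from -0.39 to 0.19.

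SNHG1, which hosts box C/D snoRNAs, stood at 63.8 ± 3.01, 69.3 ± 9.96 and 75.3 ± 11.98 CPM in CBRV1-10493, NnK-1 and control cells. SNHG7, which hosts SNORA17A and SNORA17B, stood at 55.2 ± 1.499, 55.3 ± 10.2 and 50.3 ± 4.54 CPM in the same order. SNHG12, with a mixed set of snoRNAs, stood at 22.4 ± 5.95 CPM with CBRV1-10493 and 20.7 ± 3.73 CPM with NnK-1, against 22.6 ± 2.86 CPM in control libraries. For these 3 hosts the groups overlapped in every comparison. The 4 tested hosts under 10 CPM were SNHG10, SNHG11, SNHG18 and SNHG21. SNHG10 ranged from 3.56 to 8.82 CPM over the libraries, SNHG11 from 6.29 to 15.3 CPM and SNHG18 from 3.63 to 8.21 CPM. Their highest library held 2.26 to 2.48 times the level of their lowest.

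TAF1D, a subunit of the RNA polymerase I factor SL1 and the host of both box C/D and box H/ACA snoRNAs, stood at 51.9 ± 5.68 CPM with CBRV1-10493 and 56.6 ± 2.02 CPM with NnK-1, against 58.6 ± 7.93 CPM in control libraries. Its log2 fold change was -0.16 (95% interval -0.42 to 0.11) for CBRV1-10493 and -0.02 (-0.29 to 0.24) for NnK-1, against control. Both intervals span 0.

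**Figure D1:**
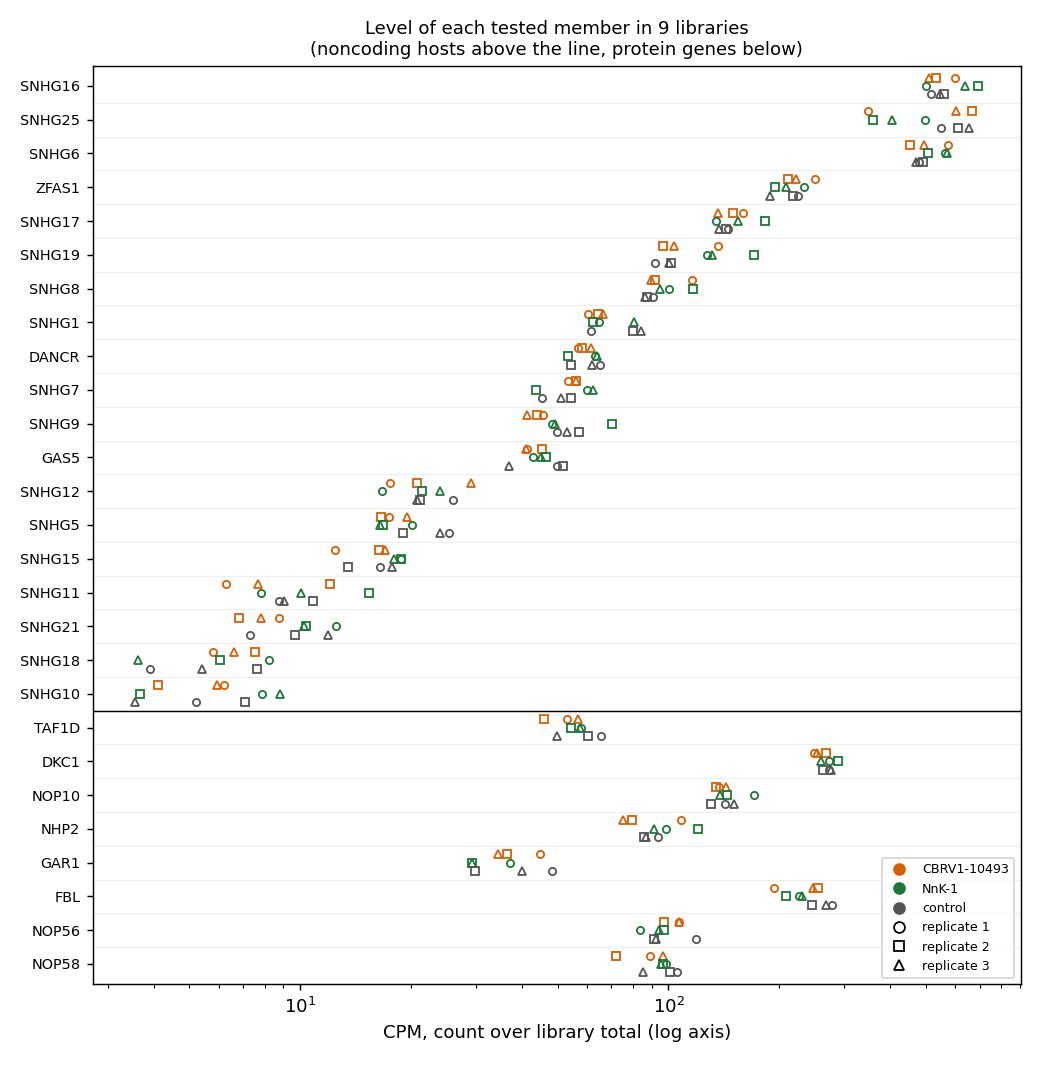
Level of each tested member in every library, in CPM on a log axis, with 1 point per library and the groups marked by colour. SNHG25 and SNHG19 spread over 349 to 667 CPM and 91.7 to 171 CPM, while the 9 libraries of DKC1 lie within 249 to 288 CPM.

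The first comparison asked how NnK-1 cells differed from control cells. With NnK-1, the host transcripts SNHG19, SNHG6, SNHG8 and SNHG15 were higher in every library than in any control library, and SNHG25 and the methyltransferase gene FBL were lower in every library. No member passed the test: edgeR's quasi-likelihood test with Benjamini-Hochberg adjustment called 0 of 27 members and 0% of all 13676 genes, and no adjusted p was below 0.499. Of the members 5 of 27 (18.5%) had an unadjusted p under 0.05, beside 1001 of all genes (7.32%). These were 3 higher and 2 lower members, beside 3.76% of all genes higher and 3.56% lower. SNHG19 and SNHG25 are among them, and the members were chosen with earlier results known, so these shares are descriptions only. Groups without overlap were found for 6 of 27 members, beside 13% of all genes. They were 4 higher and 2 lower members, beside 5.08% and 7.92% of all genes. Among all genes DESeq2 called 3, edgeR's exact test 8 and limma-voom 0, and none of these called a member. With no filter on low counts the quasi-likelihood test called 74 genes, among them SNHG19 (adjusted p = 0.000533) and SNHG25 (adjusted p = 0.000272). In that fit the prior degrees of freedom of the spread were estimated as infinite, against 13.6 with the filter.

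SNHG19 had 127, 171 and 131 CPM in the NnK-1 libraries, against 91.7, 101 and 100.5 CPM in the control libraries. Every NnK-1 library was above every control library, with replicate 2 the highest of all. That gave a log2 fold change of 0.58 (95% interval 0.29 to 0.87), with an unadjusted p of 0.000508 and an adjusted p of 0.499 in edgeR's test. It ranged from 0.41 to 0.67 over 22 alternative settings.

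SNHG25 had 496, 358.5 and 405 CPM with NnK-1, against 548, 613 and 654 CPM in control cells. All 3 NnK-1 libraries were below the lowest control library. The fitted log2 fold change was -0.50 (95% interval -0.84 to -0.17), with an unadjusted p of 0.00532 and an adjusted p of 0.578 in edgeR's test, and it ranged from -0.63 to -0.42 over the alternatives. SNHG19 and SNHG25, whose annotated RNAs both open with a C and further pyrimidines, stood on opposite sides of control. Any part of that start in their levels was not tested.

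SNHG6, a host of the box C/D snoRNA SNORD87, had 564, 506 and 572 CPM with NnK-1, against 478, 492 and 471 CPM in control cells. The groups did not overlap, but NnK-1 replicate 2 lay close to the highest control. On the log2 scale the fold change was 0.21 (95% interval 0.02 to 0.41, adjusted p = 0.659 in edgeR's test). SNHG8, the host of the box H/ACA snoRNA SNORA24, had 100.1, 117 and 94.6 CPM with NnK-1, against 90.5, 87.2 and 86.2 CPM in control cells. These groups did not overlap either, and the highest library was NnK-1 replicate 2. Its log2 fold change was 0.27 (95% interval 0.01 to 0.52, adjusted p = 0.673 in edgeR's test), and 0.16 without NnK-1 replicate 2. SNHG6 lies across MCMDC2 on the other strand, and no source used here states the strand setting of the counts, so its reads cannot be assigned with certainty.

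SNHG15, the host of SNORA9, had 18.8, 18.7 and 18.0 CPM with NnK-1, against 16.5, 13.5 and 17.7 CPM in control cells. The groups stood apart by a narrow margin. That gave a log2 fold change of 0.24 (95% interval -0.15 to 0.63, adjusted p = 0.812 in edgeR's test), and 0.14 without control replicate 2. SNHG16 was the next of the abundant hosts, with a log2 fold change of 0.20 (95% interval -0.03 to 0.44) and overlapping groups. SNHG5, the host of the SNORD50 pair, stood at 17.8 ± 1.99 CPM in NnK-1 libraries against 22.8 ± 3.27 CPM in control libraries, with a log2 fold change of -0.33 (95% interval -0.69 to 0.03).

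The box C/D core protein genes among the members were led by FBL, at 227, 209 and 230.1 CPM with NnK-1, against 278, 245 and 267 CPM in control cells. Every NnK-1 library was below every control library. The fitted log2 fold change was -0.22 (95% interval -0.44 to -0.01, adjusted p = 0.676 in edgeR's test). NOP56 stood at 91.8 ± 7.18 CPM in NnK-1 libraries against 100.9 ± 15.6 CPM in control libraries, and NOP58 at 96.7 ± 1.38 CPM in NnK-1 libraries against 97.3 ± 10.5 CPM in control libraries. These 2 scaffold proteins had log2 fold changes of -0.11 and 0.02, with overlapping groups. The 3 genes summed to 409, 403 and 420 CPM with NnK-1, against 503, 438 and 445 CPM in control cells. These sums did not overlap, but FBL, separated by itself, was the largest part of each. Summed over all 7 core protein genes the groups overlapped, at 987, 985 and 938 CPM with NnK-1 against 1060, 947 and 997.5 CPM in control cells.

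Of the box H/ACA core proteins, DKC1 stood at 273 ± 14.3 CPM in NnK-1 libraries against 271 ± 6.75 CPM in control libraries, with a log2 fold change of 0.04 (95% interval -0.14 to 0.22). NHP2 stood at 103 ± 14.8 CPM in NnK-1 libraries against 88.7 ± 4.33 CPM in control libraries (log2 fold change 0.25), and NOP10 at 151 ± 17.5 and 141 ± 9.87 CPM in NnK-1 and control cells (0.12). GAR1 stood at 31.8 ± 4.54 CPM in NnK-1 libraries against 39.4 ± 9.22 CPM in control libraries (-0.28). All 4 overlapped between the groups, as did their summed level, and none had an unadjusted p under 0.05. NHP2 lies across RMND5B on the other strand, with the same uncertainty as SNHG6.

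Across the class, 14 of 19 tested noncoding hosts had a log2 fold change above 0 for NnK-1 against control, beside 50.6% of all genes, with a median of 0.16 beside 0.003 for all genes. That median was 0.08 without NnK-1 replicate 2 and 0.09 without control replicate 1. Of the 7 core protein genes 4 were above 0, with a median of 0.02, which was -0.06 without control replicate 3. The summed level of all noncoding hosts was 2528, 2594 and 2596 CPM with NnK-1, against 2461, 2601 and 2564 CPM in control cells, with overlap.

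**Figure D2:**
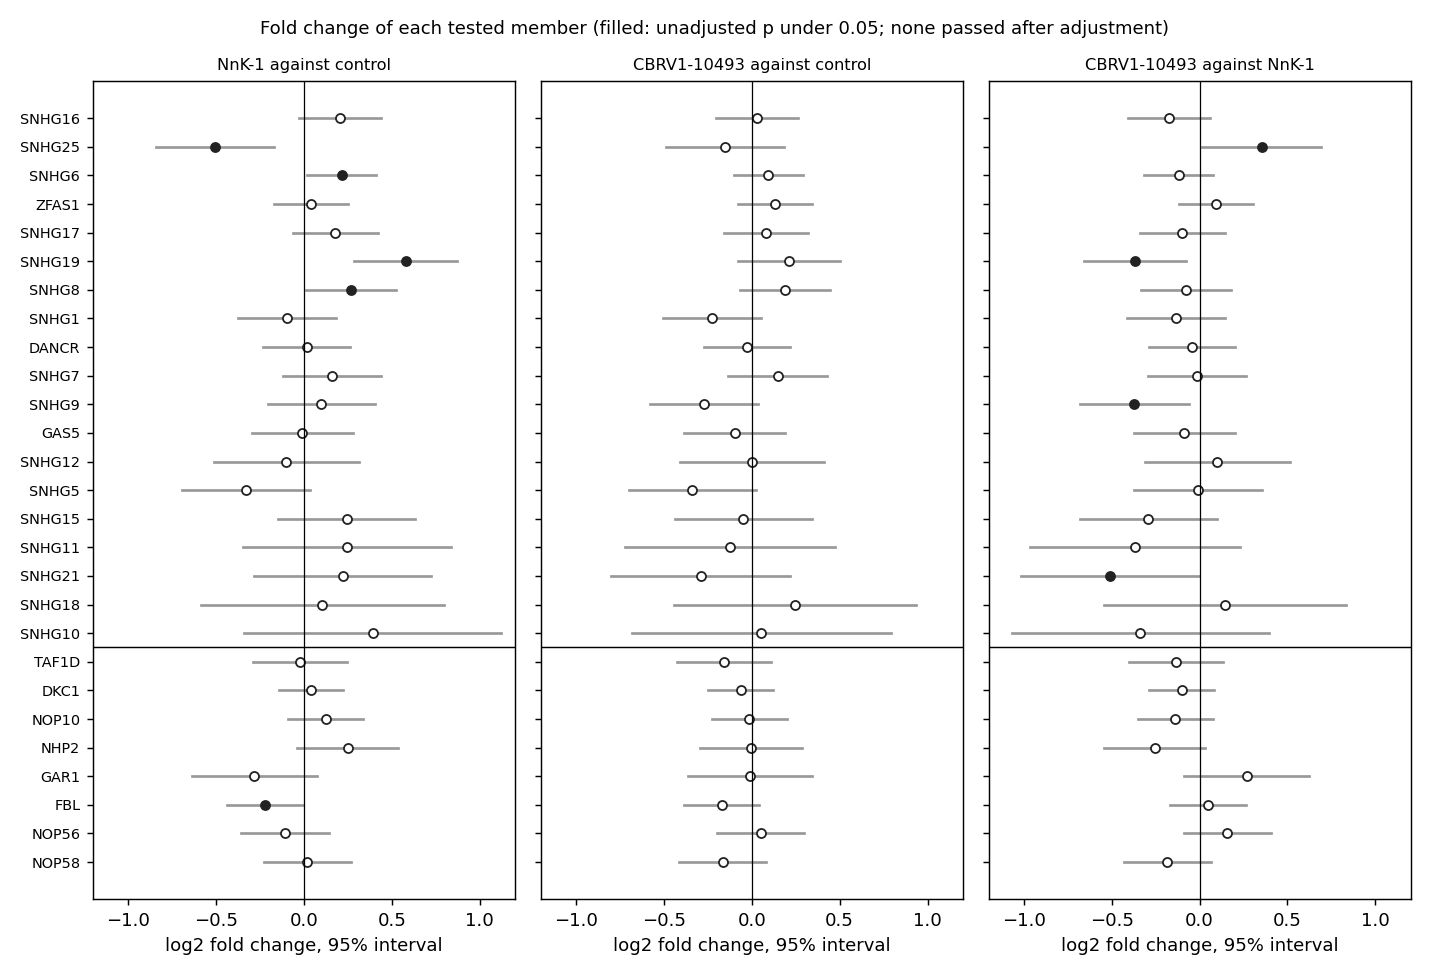
Log2 fold change of each tested member with its 95% interval in the 3 comparisons, from edgeR's quasi-likelihood fit; filled points have an unadjusted p under 0.05. With NnK-1 against control, SNHG19 lies at 0.58 and SNHG25 at -0.50, and no point passes after adjustment over all genes.

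The second comparison asked the same of CBRV1-10493, against the same control libraries. Of the tested members SNHG9 alone was separated from control, on the lower side, and the noncoding hosts lay almost evenly on both sides of 0. The quasi-likelihood test of edgeR called 0 of 27 members, beside 0% of all genes, with every adjusted p at 1. At an unadjusted p under 0.05 there were 0 of 27 members, beside 395 of all genes (2.89%, with 1.34% higher and 1.55% lower). Groups without overlap were found for 1 of 27 members, beside 8.88% of all genes (3.91% higher and 4.96% lower). Over all genes, edgeR's exact test called 2, and DESeq2 and limma-voom called 0.

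SNHG9, the host of SNORA78, had 45.7, 43.9 and 41.3 CPM with CBRV1-10493, against 49.7, 57.0 and 52.9 CPM in control cells. All 3 CBRV1-10493 libraries were below the lowest control library. On the log2 scale the fold change was -0.27 (95% interval -0.58 to 0.04), with an unadjusted p of 0.0807 and an adjusted p of 1 in edgeR's test. SNHG5 stood at 17.8 ± 1.503 CPM in CBRV1-10493 libraries against 22.8 ± 3.27 CPM in control libraries, with overlapping groups and a log2 fold change of -0.34 (95% interval -0.70 to 0.02).

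SNHG19 had 137, 96.7 and 103 CPM with CBRV1-10493, against 91.7, 101 and 100.5 CPM in control cells. Replicate 1 was above every control library and the other 2 were within or next to the control range. Its log2 fold change was 0.21 (95% interval -0.08 to 0.50), and 0.04 without CBRV1-10493 replicate 1. SNHG25 had 349, 667 and 605 CPM with CBRV1-10493, against 548, 613 and 654 CPM in control cells. Replicate 1 was the lowest of the 9 libraries and replicate 2 the highest. The log2 fold change of -0.15 (95% interval -0.49 to 0.18) was 0.08 without CBRV1-10493 replicate 1 and -0.33 without replicate 2, so its direction rested on single libraries.

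FBL had 194, 255 and 247 CPM with CBRV1-10493, against 278, 245 and 267 CPM in control cells, with replicate 1 again the lowest of all 9 libraries. That is a log2 fold change of -0.17 (95% interval -0.39 to 0.04). NOP58 stood at 85.9 ± 12.6 CPM in CBRV1-10493 libraries against 97.3 ± 10.5 CPM in control libraries, and NOP56 at 103 ± 5.39 and 100.9 ± 15.6 CPM in CBRV1-10493 and control cells. The 4 box H/ACA core protein genes had log2 fold changes of -0.06 (DKC1), -0.02 (NOP10), -0.01 (GAR1) and -0.01 (NHP2). The widest of their intervals, for GAR1, ran from -0.36 to 0.34, and that of DKC1 from -0.25 to 0.12. Over the classes, 10 of 19 noncoding hosts and 1 of 7 core protein genes were above 0, beside 50.8% of all genes, with medians of 0.002 and -0.02 beside 0.003 for all genes.

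**Figure D3:**
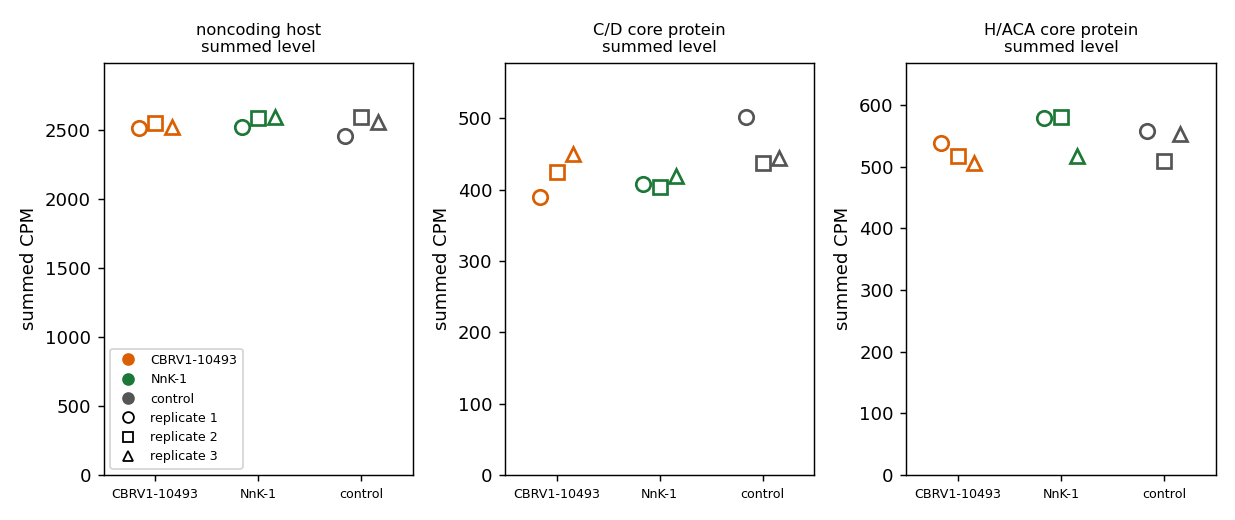
Summed CPM per library of the noncoding hosts, the box C/D core protein genes and the box H/ACA core protein genes, with 1 point per library. The summed noncoding hosts lie within 2461 to 2601 CPM in all 9 libraries, with the 3 groups overlapping.

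The third comparison was between the peptides, matched in dose and exposure. In CBRV1-10493 libraries SNHG19, SNHG9 and SNHG21 had lower means than in NnK-1 libraries and SNHG25 a higher mean, each with an unadjusted p under 0.05. That is 4 of 27 members (14.8%), beside 589 of all genes (4.31%, with 1.96% higher and 2.35% lower). Groups without overlap were found for 3 of 27 members, all lower, beside 8.88% of all genes (4.71% higher and 4.17% lower). No member passed: edgeR's quasi-likelihood test called 0 of 27 members beside 0% of all genes, with no adjusted p below 0.994, and edgeR's exact test, DESeq2 and limma-voom called 0 genes. The 2 peptide comparisons with control share their control libraries, so their values are given side by side and not correlated.

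SNHG19 had a log2 fold change of -0.37 (95% interval -0.66 to -0.08) for CBRV1-10493 against NnK-1, and the groups overlapped because CBRV1-10493 replicate 1, at 137 CPM, lay above 2 of the NnK-1 libraries. Without NnK-1 replicate 2 the value was -0.20. SNHG25 had a log2 fold change of 0.35 (95% interval 0.02 to 0.69), which was 0.58 without CBRV1-10493 replicate 1 and 0.17 without CBRV1-10493 replicate 2.

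SNHG9 had 45.7, 43.9 and 41.3 CPM with CBRV1-10493, against 48.2, 70.1 and 49.2 CPM with NnK-1. The groups did not overlap, with NnK-1 replicate 2 far above the others. That gave a log2 fold change of -0.37 (95% interval -0.68 to -0.06, adjusted p = 0.994 in edgeR's test), and -0.16 without NnK-1 replicate 2. SNHG21 had 8.77, 6.80 and 7.84 CPM with CBRV1-10493, against 12.5, 10.3 and 10.2 CPM with NnK-1, again without overlap. The value on the log2 scale was -0.51 (95% interval -1.02 to -0.002, adjusted p = 0.994 in edgeR's test), from 1053 reads over all 9 libraries. SNHG15 had 12.4, 16.4 and 17.0 CPM with CBRV1-10493, against 18.8, 18.7 and 18.0 CPM with NnK-1, with a log2 fold change of -0.29 (95% interval -0.68 to 0.10), and -0.17 without CBRV1-10493 replicate 1.

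The core protein genes overlapped between the peptides, all 7 of them. The largest differences were for GAR1 (log2 fold change 0.27, 95% interval -0.09 to 0.63) and NHP2 (-0.26, 95% interval -0.54 to 0.03), and for FBL the value was 0.05 (-0.17 to 0.27). The median was -0.10 over the 7 core protein genes, 3 of them above 0, and -0.10 over the 19 noncoding hosts, 4 of them above 0. Over all genes the median was 0.001, with 50.3% above 0. The host median was -0.05 without NnK-1 replicate 2 and -0.16 without CBRV1-10493 replicate 1.

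Read library by library, SNHG25 and SNHG19 separated the libraries in a way that the groups only partly followed. Both were singled out for standing farthest from control in NnK-1 cells, in opposite directions. A low ratio of SNHG25 to SNHG19 in the NnK-1 libraries follows from that choice and is no further result. The ratio of SNHG25 to SNHG19 counts was 2.56, 6.90 and 5.86 in CBRV1-10493 replicates 1, 2 and 3. It was 3.90, 2.09 and 3.09 in the NnK-1 replicates and 5.98, 6.05 and 6.51 in the control replicates. The 3 NnK-1 libraries and CBRV1-10493 replicate 1 were low, and the other 2 CBRV1-10493 libraries stood on either side of the control range. CBRV1-10493 replicate 1 was also at the NnK-1 side for SNHG6 (576 CPM), SNHG8 (116 CPM) and FBL (194 CPM), but for SNHG15 it was the lowest of the 9 libraries (12.4 CPM), on the other side of control from the NnK-1 libraries. NnK-1 replicate 2 and CBRV1-10493 replicate 1, the libraries apart on the principal components, had the lowest SNHG25 to SNHG19 ratios. They also had the fewest genes detected, at 15305 and 15492, and the lowest scaling factors after trimmed mean normalization, at 0.970 and 0.991. The part of these library properties in the values was not tested. Without both libraries the log2 fold change of SNHG25 for CBRV1-10493 against control was 0.08.

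**Figure D4:**
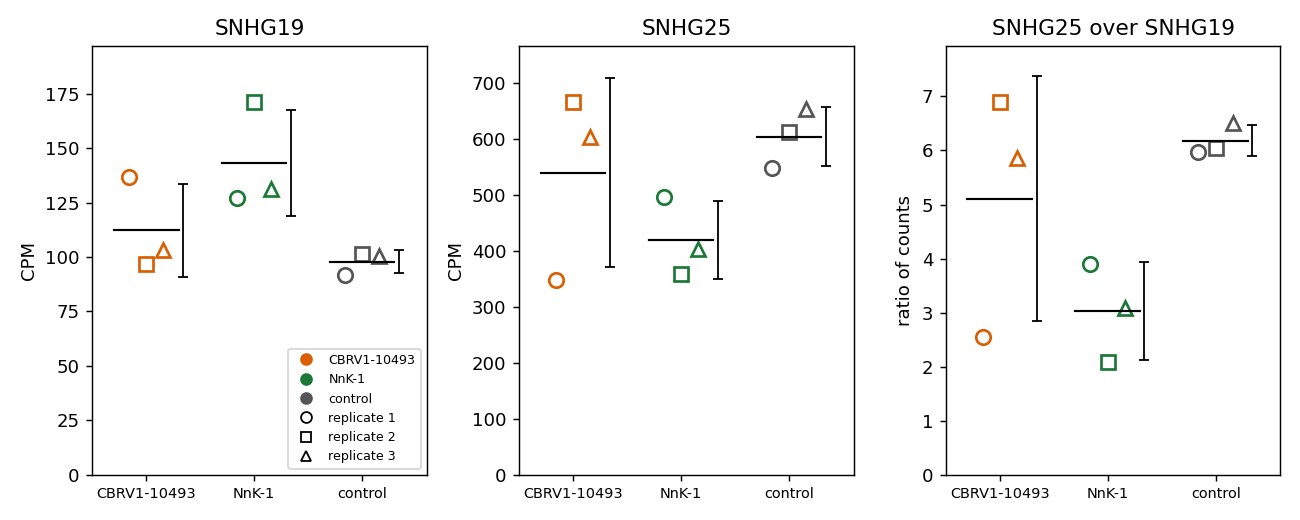
SNHG19 in CPM, SNHG25 in CPM and the ratio of SNHG25 to SNHG19 counts, in separate panels by group. Each panel has 1 point per library, with the groups marked by colour, a line at each group mean and a bar for the SD. CBRV1-10493 replicate 1 and the NnK-1 libraries lie at 349 to 496 CPM of SNHG25 and 127 to 171 CPM of SNHG19, and the other CBRV1-10493 libraries and the control libraries at 548 to 667 CPM and 91.7 to 103 CPM.

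The members differed in how closely replicate libraries agreed. The within-group SD of log2 CPM was 0.32 for SNHG25 and 0.22 for SNHG19, beside a median of 0.12 over the 2151 genes of at least 100 CPM. DKC1 had the lowest SD of the tested members, at 0.07, and SNHG10 the highest, at 0.50. Of the 27 tested members 10 were above the median of 0.19 over the 10618 genes of at least 5 CPM. They were 8 noncoding hosts and the core protein genes GAR1 (0.26) and NHP2 (0.21).

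**Figure D5:**
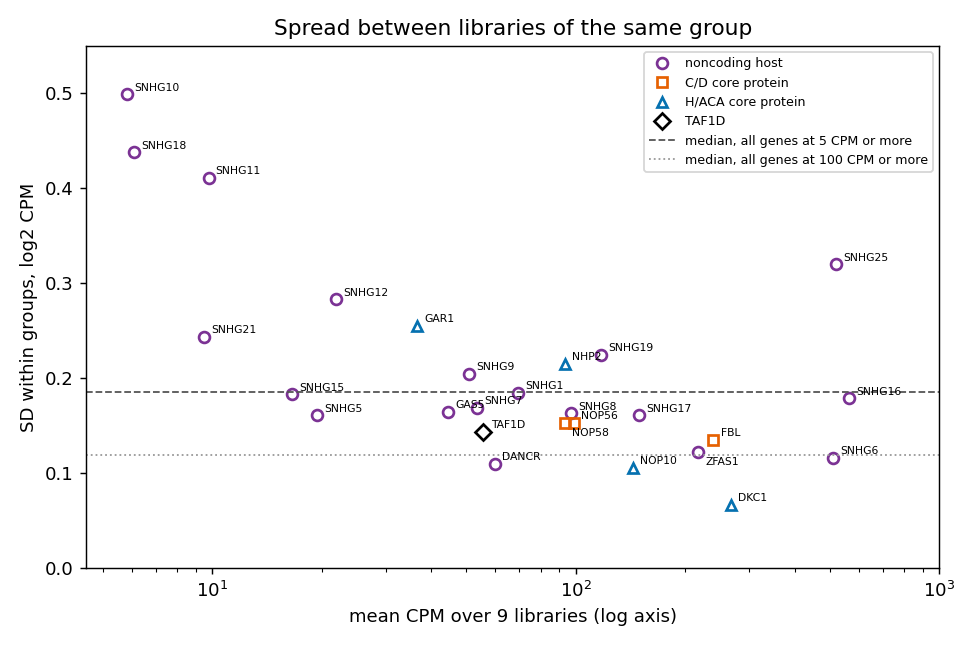
Within-group SD of log2 CPM of each tested member against its mean level in CPM on a log axis, with lines at the medians over all genes of at least 5 CPM (0.19) and of at least 100 CPM (0.12). SNHG25 lies at 0.32 with a mean of 522 CPM, and DKC1 at 0.07 with a mean of 267 CPM.

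Reads were also listed under the names of the hosted snoRNAs. Mature snoRNAs carry no stable poly(A) tail and these libraries start from one, so what such reads come from was not tested. Of 62 hosted snoRNA symbols listed, 57 were in the files, 44 had at least 1 read and 9 were tested. SNORD104, in the SNHG25 intron, had 81, 95 and 91 reads with CBRV1-10493, 125, 120 and 112 reads with NnK-1 and 87, 175 and 154 reads in control cells. It came to 1.17% to 2.99% of the SNHG25 count in each library. Its log2 fold change for CBRV1-10493 against control was -0.54 (95% interval -1.08 to -0.01, adjusted p = 1 in edgeR's test), and -0.33 without control replicate 2. SNORD60, in the SNHG19 intron, had 0, 7 and 4 reads with CBRV1-10493, 7, 3 and 4 with NnK-1 and 0, 4 and 0 in control cells, too few to test.

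SNORA25, in an intron of TAF1D, had 13, 4 and 7 reads with CBRV1-10493, 24, 7 and 27 reads with NnK-1 and 44, 35 and 44 reads in control cells. Every peptide library was below every control library. For CBRV1-10493 against control the log2 fold change was -2.25 (95% interval -3.57 to -0.92, adjusted p = 1 in edgeR's test), while its host TAF1D stood at -0.16. At an unadjusted p under 0.05, 2 of 9 tested snoRNA symbols were lower with CBRV1-10493 than in control cells, beside 1.55% of all genes. In NnK-1 against control there were 0 of 9 symbols beside 7.32% of all genes, and in CBRV1-10493 against NnK-1 there were 0 of 9 beside 4.31%. Without overlap, 1 of 9 was lower for NnK-1 against control, beside 7.92% of all genes. For CBRV1-10493 against the same controls it was 2 of 9, beside 4.96%.

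The factors that assemble snoRNPs were compared as a list of 17 tested genes. RUVBL2, an ATPase of the R2TP chaperone complex that builds box C/D snoRNPs, had 49.5, 46.1 and 43.6 CPM with CBRV1-10493, 49.3, 55.3 and 48.9 CPM with NnK-1 and 40.1, 38.5 and 33.2 CPM in untreated control cells. All 6 peptide libraries were above all 3 control libraries. The fitted log2 fold change was 0.33 (95% interval 0.06 to 0.60, adjusted p = 1) with CBRV1-10493 and 0.49 (0.22 to 0.76, adjusted p = 0.499) with NnK-1, in edgeR's test against the same controls. Its partner RUVBL1 had a log2 fold change of 0.04 with CBRV1-10493 and 0.27 with NnK-1. RRP9, a protein of the U3 snoRNP, was at 15.3 ± 1.33 CPM in CBRV1-10493 libraries against 20.6 ± 0.849 CPM in control libraries (log2 fold change -0.42). With NnK-1 it was at 16.35 ± 0.957 CPM, also below control in every library (log2 fold change -0.31, 95% interval -0.66 to 0.05). NUFIP1, an assembly factor, was at 15.6 ± 3.38 CPM with CBRV1-10493 and 21.7 ± 1.87 CPM with NnK-1 (-0.49 between the peptides). In control libraries it was at 17.5 ± 1.38 CPM, below every NnK-1 library (log2 fold change 0.34 for NnK-1 against control, 95% interval -0.06 to 0.73) and overlapping with CBRV1-10493. At an unadjusted p under 0.05, 2 of the 17 genes were higher for NnK-1 against control, beside 3.76% of all genes. For CBRV1-10493 against control 1 was higher, beside 1.34% of all genes, and 1 lower, beside 1.55%. For CBRV1-10493 against NnK-1 1 was lower, beside 2.35%. Without overlap, 3 of these genes were higher and 3 lower for NnK-1 against control, beside 5.08% and 7.92% of all genes. For CBRV1-10493 against the same controls 1 was higher and 1 lower without overlap, beside 3.91% and 4.96%.

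Of 10 nonsense-mediated decay factors, the decay factor gene UPF2 alone had an unadjusted p under 0.05, in NnK-1 against control, where 7.32% of all genes did. It stood at 31.1 ± 4.91 CPM in NnK-1 libraries against 40.4 ± 7.15 CPM in control libraries, with a log2 fold change of -0.35 (95% interval -0.68 to -0.02, adjusted p = 0.667 in edgeR's test), and -0.22 without control replicate 1. The decay factor gene UPF3B was lower without overlap for both peptides against the shared controls. Such genes were 7.92% of all genes for NnK-1 and 4.96% for CBRV1-10493. Of 31 tested protein-coding genes that also host snoRNAs, 2 were higher and 3 lower at an unadjusted p under 0.05 for NnK-1 against control. The shares of all genes were 3.76% and 3.56%. For CBRV1-10493 against control 1 of 31 was lower (3.23%), close to the 2.89% of all genes with such a p in either direction. The ribosomal protein gene RPS3 had 574, 862 and 904 CPM with CBRV1-10493, 819, 621 and 630.2 CPM with NnK-1 and 1324, 838 and 851 CPM in untreated control cells. On the log2 scale it stood at -0.35 with CBRV1-10493 (-0.11 without control replicate 1) and -0.52 with NnK-1 (-0.27 without that library). The ribosomal protein genes RPS2 (0.24) and RPL13 (0.20) were higher with NnK-1 and the nucleolar protein gene NCL (-0.19) was lower, each with an adjusted p over 0.6.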

How the data were processed

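Transcripts of U-373MG cells were measured with QuantSeq 3′ mRNA libraries in 9 samples. Per the labels' protocols, 500 ng of RNA entered each library, and sequencing was single-end at 75 bp. The submitters' processing notes name Bowtie2, bedtools and build hg19, while versions, annotation and counting options are not stated in any source used here. The deposited values are the authors' raw counts of reads per gene symbol, with a file for each library. Groups were taken from the labels. These call the libraries biological replicates without stating separate cultures, so p-values measure the spread between samples, which may be technical.

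Rows of 1 symbol were summed (25737 rows, 286 symbols on several rows), and CPM was the count over the library total. Genes were kept by filterByExpr (minimum count 10, minimum total 15), which left 13676. All 9 libraries entered 1 quasi-likelihood fit of edgeR 4.0.16 (R 4.3.3) with trimmed mean of M values scaling, two-sided, Benjamini-Hochberg adjustment over all genes and a threshold of 0.05. No pair of libraries agreed within sampling noise, so none was taken as a repeat of another and each entered as 1 sample. That check cannot show separate cultures. Alternatives included DESeq2 1.42.0 and limma-voom (limma 3.58.1).

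The members and lists were chosen with earlier results of these data known. All tested members averaging at least 5 CPM were named. Those with an unadjusted p under 0.05 or without overlap between groups have the value of every library. From each related list (snoRNP assembly, nonsense-mediated decay, other protein-coding hosts, hosted snoRNAs) up to 4 genes per comparison with an unadjusted p under 0.05 were named by smallest p. Sequences came from RefSeq (GRCh38.p14) and GENCODE release 29. Of 31 members with an annotated locus, 13 are overlapped by a gene on the other strand, so their counts are uncertain. They are DANCR, GAS5, NHP2, SNHG4, SNHG6, SNHG7, SNHG10, SNHG12, SNHG16, SNHG21, SNHG22, TAF1D and ZFAS1.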

Additional observations from a re-analysis of the deposited data

How the results depend on the processing

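Results were recomputed under 22 alternatives, except that SNORA25 had a value under 21. Without a filter on counts, edgeR's quasi-likelihood test called 74 genes for NnK-1 against control, 6 for CBRV1-10493 against control and 1 for CBRV1-10493 against NnK-1, and 2 members for NnK-1 against control (SNHG19 and SNHG25). That fit also gave RPS3 an adjusted p of 7.39e-05. DESeq2 called 3 genes and edgeR's exact test 8 for NnK-1 against control, and the exact test 2 for CBRV1-10493 against control. The prior degrees of freedom were infinite without the filter, and the cause of any of these changes was not tested. Leaving out 1 library at a time called 0 genes in every comparison. It gave medians of 0.081 to 0.182 for the noncoding hosts and -0.062 to 0.043 for the core protein genes (NnK-1 against control). For CBRV1-10493 against control they were -0.042 to 0.053 and -0.085 to 0.006, and for CBRV1-10493 against NnK-1 -0.156 to -0.054 and -0.14 to -0.047. Without both NnK-1 replicate 2 and CBRV1-10493 replicate 1 the host median was 0.082 for NnK-1 against control, and the core protein median was -0.03 for CBRV1-10493 against NnK-1. SNHG25 for CBRV1-10493 against control turned to 0.08 without CBRV1-10493 replicate 1, alone or with NnK-1 replicate 2, and ranged from -0.331 to 0.08 when 1 library was left out. Replicate numbers did not pair the libraries: the correlations of same-numbered deviations for NnK-1 and control were 0.132, 0.026 and 0.014. With the replicate block 0 genes and 0 members were called in each comparison, as without it. With 3 libraries per group, an exact permutation test of 1 gene cannot go below 0.1.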
